A study of Mus musculus with 18 samples.

Results

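Cell cycle genes are the genes whose products copy the chromosomes in S phase and separate them in mitosis, together with the cyclins and kinases that move a cell from one phase to the next. The set described here held 36 listed genes of the 55335 genes in the count table, matched by Ensembl identifier to GENCODE M21 symbols. It comprised 11 genes that act at or before DNA synthesis (S phase members), 24 genes whose transcripts or products peak in G2 and mitosis (mitosis members) and the G1 cyclin Ccnd1, which was counted in neither group. All 36 were found in the table and passed the filter on low counts. RNA was measured by poly-A sequencing in 12 mouse liver tumours (hepatocellular carcinomas), with 3 libraries in each of 4 groups.

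The groups came from 2 tumour models, each with control tumours and with tumours after depletion of cells that express Prom1, the gene of prominin-1 (CD133), a surface protein by which progenitor-like tumour cells are often marked. In the DEN+CCl4 model mice were given the carcinogen N-nitrosodiethylamine (1 mg/kg, at 14 days of age) and then, starting at 8 weeks, carbon tetrachloride (0.2 ml/kg). The N-Ras+AKT tumours arose after plasmids carrying NRasV12 and myristoylated AKT (20 µg each) with the Sleeping Beauty transposase (1.6 µg) were injected into the tail vein, a route that delivers DNA to hepatocytes. Every bulk library carries the strain label Prom1C-L/+;Rosa26DTA/+, in which tamoxifen activates a Cre recombinase made from the Prom1 locus, so that diphtheria toxin A is switched on and kills cells in which that locus is active. The design text instead names Prom1+/+;Rosa26DTA/+ littermates as controls and also a vehicle of olive oil, and it remains unclear if control mice went without the Cre allele, without tamoxifen (4 mg doses) or without both. Tumours were taken 16 days after the last dose in the DEN+CCl4 model and 6 days after it in the N-Ras+AKT model. The age of the mice at collection is not stated in the labels, and nothing says which libraries came from separate mice, so p-values measure the spread between these libraries.

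In an adult liver nearly all hepatocytes rest outside the cycle, and they re-enter it after injury or in tumours. Growth signals raise cyclin D1, which with its kinases releases E2F factors from the retinoblastoma proteins. E2F factors then drive cyclin E, the MCM helicase subunits and the enzymes of nucleotide supply. Later, the factors B-Myb and FoxM1 with the MuvB complex drive genes of G2 and mitosis through promoter elements known as the cell cycle homology region (CHR) and neighbouring CCAAT boxes bound by NF-Y. Transcripts of mitosis genes are low in cells outside the cycle.

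The promoters of the 4 mitosis and 4 S phase members with the highest summed levels among those with a RefSeq promoter entry are shown. The reason is that mitosis genes are driven through the CHR with CCAAT boxes, and S phase genes by E2F factors. RefSeq entries matched 18 of 24 mitosis members and 10 of 11 S phase members. Each sequence is the 150 bases before the RefSeq start on GRCm38.p6, 5′ to 3′ on the gene's strand. Capitals mark CHR cores, which were searched as TTTGAA and in the variant form TTTAAA, together with CCAAT boxes and E2F sites (TTTCGCGC, TTTGGCGC or TTCCCGCC). Both strands were searched, so ATTGG is a CCAAT box on the other strand, and a CHR core on the other strand reads TTCAAA. The mitosis members were Mki67 (chr7:135716380-135716529, minus strand), Top2a (chr11:99024190-99024339, minus strand), Cdk1 (chr10:69352913-69353062, minus strand) and Cenpf (chr1:189688087-189688236, minus strand).
Mki67: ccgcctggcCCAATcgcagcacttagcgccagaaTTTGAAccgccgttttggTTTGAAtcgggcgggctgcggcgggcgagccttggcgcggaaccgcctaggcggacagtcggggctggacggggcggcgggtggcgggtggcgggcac
Top2a: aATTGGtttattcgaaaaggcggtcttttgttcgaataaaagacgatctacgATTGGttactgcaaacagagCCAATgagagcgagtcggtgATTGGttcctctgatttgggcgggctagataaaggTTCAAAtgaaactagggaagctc
Cdk1: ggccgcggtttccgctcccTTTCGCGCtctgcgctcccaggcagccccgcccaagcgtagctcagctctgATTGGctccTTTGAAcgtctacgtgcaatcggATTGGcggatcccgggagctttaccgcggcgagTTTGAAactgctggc
Cenpf: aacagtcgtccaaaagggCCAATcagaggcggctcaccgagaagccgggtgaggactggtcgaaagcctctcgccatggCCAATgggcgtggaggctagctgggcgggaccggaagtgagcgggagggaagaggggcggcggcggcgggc
The S phase members were Pcna (chr2:132253181-132253330, minus strand), Mcm6 (chr1:128359706-128359855, minus strand), Rrm2 (chr12:24708104-24708253, plus strand) and Mcm7 (chr5:138171884-138172033, minus strand, 1 of 2 starts listed for it).
Pcna: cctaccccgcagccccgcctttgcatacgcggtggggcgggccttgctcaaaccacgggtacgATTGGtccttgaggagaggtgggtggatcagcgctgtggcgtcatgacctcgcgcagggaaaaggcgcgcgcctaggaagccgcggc
Mcm6: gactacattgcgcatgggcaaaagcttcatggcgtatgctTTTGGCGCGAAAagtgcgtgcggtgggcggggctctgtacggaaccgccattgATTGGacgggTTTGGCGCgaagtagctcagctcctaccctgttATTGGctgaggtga
Rrm2: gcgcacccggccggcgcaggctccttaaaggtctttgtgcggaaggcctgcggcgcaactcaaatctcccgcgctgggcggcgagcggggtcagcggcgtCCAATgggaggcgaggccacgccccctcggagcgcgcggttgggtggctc
Mcm7: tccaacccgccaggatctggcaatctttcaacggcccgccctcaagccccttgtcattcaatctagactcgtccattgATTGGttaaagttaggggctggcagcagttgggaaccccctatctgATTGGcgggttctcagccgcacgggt
In the Mcm6 sequence the longer run of capitals holds TTTGGCGC and, on the other strand and overlapping it, TTTCGCGC. Over the full 250 bases before the start, a CHR core was found in 11 of 18 mitosis members with an entry, in 3 of the 11 windows of 10 S phase members and in 25.2% of all 32851 promoters in the table. A CCAAT box was found in 16 of the 18, in 8 of the 11 and in 33.8%. Both elements together were found in 10 of the 18 mitosis members, in 2 of the 11 S phase windows and in 8.78% of all promoters. An E2F site in these exact letters was found in Cdk1 among the mitosis members, in 2 S phase windows and in 2.48% of all promoters. A match describes these letters only and was not tested as a bound site.

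Prom1 was measured first because it checks the group labels. It stood at 60.1, 76.7 and 48.9 CPM (counts scaled to library size) in DEN+CCl4 controls 7, 8 and 13, and at 17.4, 40 and 35.7 CPM in depletion libraries 6, 9 and 10. N-Ras+AKT controls 3, 10 and 15 had 45.4, 59.2 and 78.3 CPM, and depletion libraries 6, 11 and 17 had 5.81, 16.5 and 2.17 CPM. The groups did not overlap in either model. The log2 difference passed in the N-Ras+AKT model (−2.90, SE 0.61, adjusted p = 0.00953) and not in the DEN+CCl4 model (−1.0, SE 0.57, adjusted p = 0.381). Adjusted p-values here and below are from edgeR's quasi-likelihood test with Benjamini-Hochberg adjustment over 17013 genes, and a gene passed under 0.05. Library totals ran from 31306617 to 48055812 counts, and hepatocyte markers were abundant in every library (7 matched of 8 listed, summed level 64148 to 241090 CPM). DEN+CCl4 depletion 6 and N-Ras+AKT depletion 17 stood apart from their groups in earlier results of these data, and results that turn on either are also given without it.

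Across the 12 libraries the mitosis members moved as 1 block, and 2 libraries marked its ends. All 24 mitosis members were lowest in DEN+CCl4 depletion 6 and all 24 were highest in N-Ras+AKT control 15. The S phase members moved the same way over a shorter range, with 9 of 11 lowest in the first of these libraries and 7 of 11 highest in the second. The range between the lowest and the highest of 12 libraries had a median of 5.67 on the log2 scale (3.01 to 7.53) over the mitosis members, 2.37 (1.15 to 3.71) over the S phase members and 1.43 over all genes tested. Without DEN+CCl4 depletion 6 these medians were 2.54, 1.44 and 1.32. In that library 7 mitosis members had 3 counts or fewer. The ranges of these members, 7.53 among them, therefore rest on few counts and on the prior count of 2 added for the log2 scale. The biological coefficient of variation, the spread between libraries of 1 group in the fit, had a median of 0.659 over the mitosis members, 0.313 over the S phase members and 0.198 over all genes tested.

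**Figure D1:**
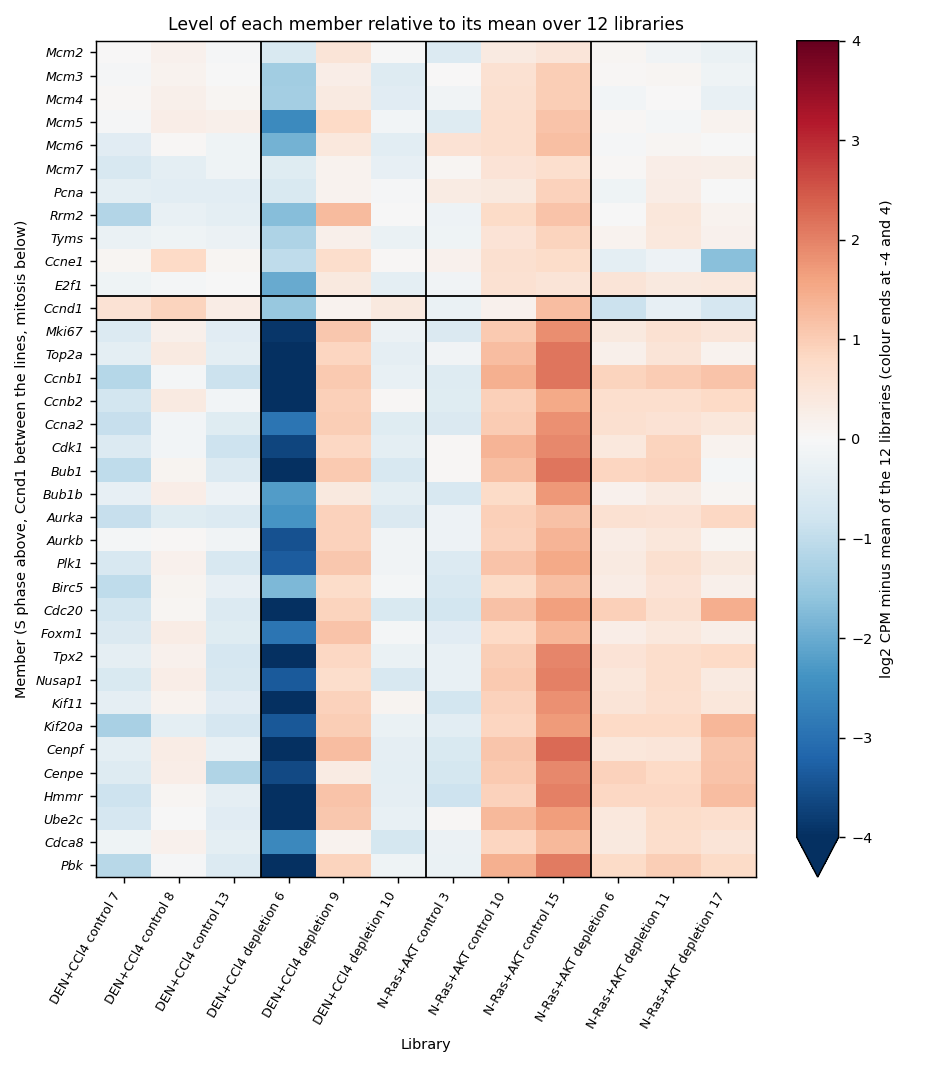
Level of each of the 36 members in each of the 12 libraries, as log2 CPM minus the member's mean over the libraries (colour scale from −4 to 4), with S phase members above the first line, Ccnd1 between the lines and mitosis members below. The column of DEN+CCl4 depletion 6 is the lowest for all 24 mitosis members and that of N-Ras+AKT control 15 the highest.

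Among the mitosis members, Mki67 (chromosome 7, 135689784 to 135716361, minus strand, GRCm38) codes for Ki-67, which coats mitotic chromosomes and is the usual stain for cycling cells. It stood at 22.3, 37.5 and 23.5 CPM in DEN+CCl4 controls 7, 8 and 13, at 2.12, 68.8 and 27.7 CPM in depletion 6, 9 and 10, at 21.6, 66.8 and 117 CPM in N-Ras+AKT controls 3, 10 and 15, and at 42.3, 49.8 and 45.1 CPM in depletion 6, 11 and 17. The DEN+CCl4 depletion libraries therefore lay below, above and inside the range of their controls, and the 3 N-Ras+AKT depletion libraries lay close together inside the wide range of theirs.

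Top2a, the topoisomerase that untangles sister chromosomes, had 10.3, 17.3 and 10.3 CPM in the DEN+CCl4 controls, 0.696, 24.5 and 10.3 CPM in its depletion libraries, 12.2, 31.1 and 58.5 CPM in the N-Ras+AKT controls and 15.2, 18.9 and 14.6 CPM in its depletion libraries, in the same order of libraries, which holds for all values below. Its lowest and highest libraries were those of Mki67. Ccnb1 codes for cyclin B1, the partner of the kinase that starts mitosis, and its level was 1.89, 4.00 and 2.29 CPM in the DEN+CCl4 controls, 0.104, 8.77 and 3.45 CPM in its depletion libraries, 2.95, 11.5 and 18.9 CPM in the N-Ras+AKT controls and 7.91, 8.50 and 9.38 CPM in its depletion libraries. Cdk1, that kinase, had 4.63, 6.31 and 3.82 CPM, then 0.487, 12.3 and 5.18 CPM in the DEN+CCl4 groups, and 7.03, 17.7 and 25.8 CPM, then 9.13, 12.6 and 7.53 CPM in the N-Ras+AKT groups. In all of these genes the DEN+CCl4 depletion group spanned more than its controls, and the N-Ras+AKT depletion group spanned less than its own.

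Cdc20, which activates the ubiquitin ligase that lets chromosomes part, stood at 1.99, 3.53 and 2.29 CPM and then 0.139, 6.27 and 2.19 CPM in the DEN+CCl4 controls and depletion libraries, and at 2.0, 7.60 and 10.7 CPM and then 6.60, 5.24 and 9.25 CPM in the N-Ras+AKT ones. Plk1, a kinase of spindle poles and kinetochores, stood at 1.85, 3.31 and 1.85 CPM, then 0.244, 6.18 and 2.62 CPM, and at 2.0, 6.55 and 8.52 CPM, then 3.78, 4.56 and 3.88 CPM. Both followed the same order, with DEN+CCl4 depletion 6 lowest and N-Ras+AKT control 15 highest. The counts behind the lowest values were small. In DEN+CCl4 depletion 6, 7 mitosis members had 3 counts or fewer, namely Ccnb1, Ccnb2, Hmmr and Ube2c with 3 (95% Poisson interval 0.619 to 8.77), Bub1 and Cenpf with 2 (0.242 to 7.22) and Pbk with 1 (0.0253 to 5.57). No fold against that library is given for any of these by name, but they enter the log2 range above and the mitosis score below. The intervals cover counting error only.

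Among the S phase members, Mcm2 and Mcm5 code for subunits of the ring that unwinds DNA at replication forks. Mcm2 stood at 11.0, 12.2 and 10.4 CPM in the DEN+CCl4 controls, at 7.03, 15.6 and 10.6 CPM in its depletion libraries, at 7.38, 13.8 and 15.1 CPM in the N-Ras+AKT controls and at 11.4, 9.89 and 8.96 CPM in its depletion libraries. Mcm5 stood at 6.41, 8.00 and 7.58 CPM, then 1.08, 11.6 and 6.14 CPM in the DEN+CCl4 groups, and at 4.65, 10.6 and 14.7 CPM, then 6.86, 6.21 and 7.35 CPM in the N-Ras+AKT groups. The helicase subunits thus differed among themselves, since DEN+CCl4 depletion 6 kept much of its Mcm2 while its Mcm5 was far below the other 11 libraries.

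Mcm7 (chromosome 5, 138164583 to 138172422, minus strand), another helicase subunit, stood at 8.19, 9.62 and 11.3 CPM in the DEN+CCl4 controls, at 9.05, 14.0 and 10.1 CPM in its depletion libraries, at 13.5, 18.4 and 20.4 CPM in the N-Ras+AKT controls and at 13.1, 15.2 and 14.9 CPM in its depletion libraries. Pcna (chromosome 2, 132249162 to 132253314, minus strand) codes for the clamp that holds DNA polymerases on DNA, and stood at 20.6, 20.5 and 20.3 CPM, then 18, 30.2 and 26.8 CPM in the DEN+CCl4 groups, and at 34.2, 36.1 and 51.4 CPM, then 24.3, 33.9 and 27.2 CPM in the N-Ras+AKT groups. In both genes every N-Ras+AKT control lay above every DEN+CCl4 control, and DEN+CCl4 depletion 6 was close to its controls. Rrm2, a subunit of the reductase that makes deoxynucleotides, stood at 5.30, 9.65 and 9.17 CPM, then 3.66, 29.0 and 11.9 CPM, and at 10.4, 20.2 and 26.2 CPM, then 11.7, 16.2 and 13.2 CPM. Its highest value of all was in DEN+CCl4 depletion 9.

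The regulators of entry into S phase did not follow this order throughout. Ccne1, cyclin E1, which with Cdk2 starts S phase, stood at 4.98, 8.22 and 5.01 CPM, then 2.33, 7.67 and 4.87 CPM in the DEN+CCl4 groups, and at 5.38, 7.34 and 7.98 CPM, then 3.63, 4.12 and 1.47 CPM in the N-Ras+AKT groups. It was lowest in N-Ras+AKT depletion 17, a library in which the mitosis members were not low. E2f1, the factor that drives S phase genes, stood at 3.13, 3.34 and 3.50 CPM, then 0.836, 4.60 and 2.68 CPM, and at 3.18, 5.36 and 5.05 CPM, then 5.07, 4.67 and 4.69 CPM. Ccnd1 (chromosome 7, 144929931 to 144939925, minus strand), cyclin D1, stood at 181, 224 and 149 CPM, then 42.4, 133 and 161 CPM, and at 101, 137 and 285 CPM, then 66.4, 97.5 and 76.5 CPM. All 3 N-Ras+AKT depletion libraries lay below all 3 controls for Ccne1 and Ccnd1, and not for E2f1.

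**Figure D2:**
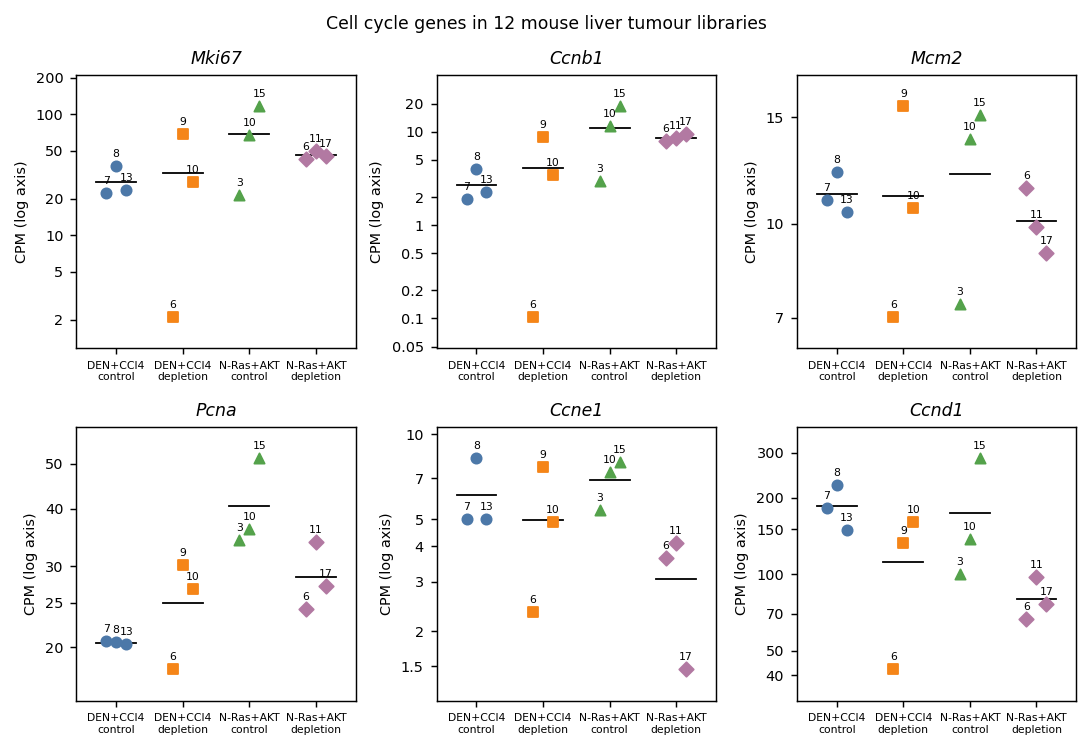
CPM (log axis) of Mki67, Ccnb1, Mcm2, Pcna, Ccne1 and Ccnd1 in each library, labelled by replicate number, with a bar at the arithmetic mean of the 3 libraries of a group. As a ratio, the distance seen on the log axis, Mki67 and Ccnb1 spread widest in the DEN+CCl4 depletion group, from 2.12 to 68.8 CPM for Mki67. Both spread least in the N-Ras+AKT depletion group. In CPM itself both spread widest in the N-Ras+AKT controls, from 21.6 to 117 CPM for Mki67.

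Per kilobase of exon, Ccnd1 had the highest mean level of the 36 (29.3 CPM per kilobase), followed by Pcna (11.9), Rrm2 (5.01) and Mki67 (4.34), and Cenpf, a kinetochore protein, the lowest (0.455 CPM per kilobase). Of the members, 13 have an annotated gene on the opposite strand that overlaps them, 8 of these a protein-coding one, Mcm7 (Cops6 and Ap4m1) and Ccnd1 (LTO1) among them. The strand setting of the counting is not stated, so reads of such pairs may not be told apart.

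To set S phase against mitosis library by library, a score was taken as the mean over the members of a group of log2 CPM minus each member's mean over the 12 libraries. DEN+CCl4 controls 7, 8 and 13 had mitosis scores of −0.66, 0.09 and −0.51 and S phase scores of −0.27, 0.02 and −0.10. DEN+CCl4 depletion 6, 9 and 10 had mitosis scores of −3.70, 0.88 and −0.32 and S phase scores of −1.35, 0.48 and −0.23. Depletion 6 was thus low in both and much lower in mitosis, depletion 9 was above every control of its model in both, and depletion 10 was inside the control range in both.

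N-Ras+AKT controls 3, 10 and 15 had mitosis scores of −0.42, 1.05 and 1.76 and S phase scores of −0.05, 0.58 and 0.88. N-Ras+AKT depletion 6, 11 and 17 had mitosis scores of 0.55, 0.68 and 0.61 and S phase scores of 0.02, 0.14 and −0.12. The controls were spread over most of the range seen outside DEN+CCl4 depletion 6, and the depletion libraries sat at 1 level. The mitosis score had a mean of −0.36 ± 0.40 in the DEN+CCl4 controls, −1.05 ± 2.38 after depletion, 0.80 ± 1.11 in the N-Ras+AKT controls and 0.61 ± 0.07 after depletion (SD, n = 3), and the S phase score −0.12 ± 0.15, −0.37 ± 0.92, 0.47 ± 0.47 and 0.01 ± 0.13. In both models the difference between the group means was smaller than the largest SD of the groups compared for the mitosis score, and no p is given for a score over chosen genes.

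The balance between mitosis and S phase differed between libraries. The mitosis score minus the S phase score was −0.39, 0.07 and −0.41 in the DEN+CCl4 controls, −2.35, 0.41 and −0.09 after depletion, −0.37, 0.47 and 0.88 in the N-Ras+AKT controls and 0.53, 0.53 and 0.73 after depletion. Summed over the members, the mitosis genes took 9.71 CPM in DEN+CCl4 depletion 6, 0.174 of the 55.7 CPM of its S phase genes, and 469.8 CPM in N-Ras+AKT control 15, 2.09 times the 224 CPM of its S phase genes. In the N-Ras+AKT depletion libraries the ratio was 1.59, 1.54 and 1.72, with S phase sums of 116, 134 and 116 CPM. In bulk tissue, fewer cycling cells and less RNA per cycling cell cannot be told apart.

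**Figure D3:**
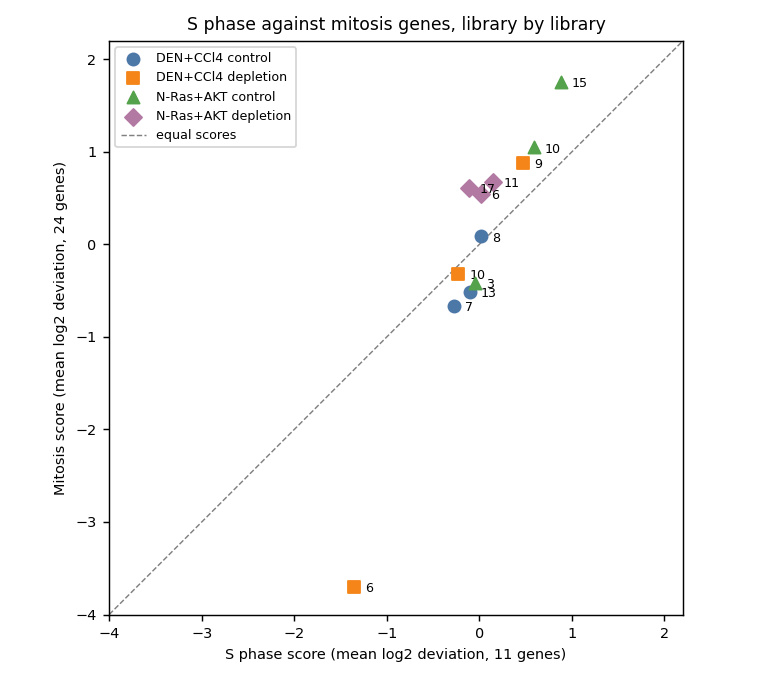
Mitosis score against S phase score of each library (both in log2 units relative to the mean of the 12 libraries), labelled by replicate number, with a dashed line at equal scores. DEN+CCl4 depletion 6 stands alone at −1.35 and −3.70, and the 3 N-Ras+AKT depletion libraries form a tight group with mitosis scores of 0.55 to 0.68.

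The order of libraries was shared by nearly all members within the DEN+CCl4 depletion group and the N-Ras+AKT controls, and less so in the other groups. In the DEN+CCl4 depletion group all 24 mitosis and all 11 S phase members were lowest in library 6 and highest in library 9. Depletion 9 exceeded all 3 DEN+CCl4 controls in 23 of 24 mitosis and 10 of 11 S phase members, and depletion 10 lay within the control range in 19 of 24 and 3 of 11. In the N-Ras+AKT controls all 24 mitosis and all 11 S phase members were lowest in library 3, and 24 and 10 were highest in library 15. In the DEN+CCl4 controls all 24 mitosis members were highest in library 8, and 17 were lowest in library 7 and 7 in library 13. In the N-Ras+AKT depletion libraries 6, 11 and 17 the lowest place was split 9, 4 and 11 over the mitosis members and the highest 1, 14 and 9. All 3 N-Ras+AKT depletion libraries lay between the lowest and the highest control in 23 of 24 mitosis members and in 5 of 11 S phase members.

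The ratio of the highest to the lowest library of a group was compared over the 17 mitosis members with more than 3 counts in every library. Its median was 1.75 (1.13 to 2.88) for DEN+CCl4 controls and 22.4 (5.95 to 47.2) for depletion, and 4.78 (2.61 to 6.27) for N-Ras+AKT controls and 1.25 (1.13 to 1.77) for depletion. For the 11 S phase members it was 1.16 (1.02 to 1.82), 3.29 (1.55 to 10.7), 1.93 (1.48 to 3.15) and 1.22 (1.08 to 2.81). Most of the DEN+CCl4 value came with depletion 6, without which depletion 9 and 10 differed by a median of 2.36 for the mitosis members (1.65 to 2.86) and 1.71 for the S phase members (1.13 to 2.44). Without N-Ras+AKT control 15, controls 3 and 10 differed by 2.60 (2.16 to 3.81) for the mitosis members. With 3 libraries a group, a difference in spread was not tested.

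The first comparison asks whether cell cycle genes differed after depletion in the DEN+CCl4 model. None of the 36 members passed, beside 0.37% of all genes tested (0.112% higher and 0.259% lower), and none had an unadjusted p under 0.05 in edgeR, beside 18.7% of all genes. DESeq2 and voom also called none of the members. In none of the 36 did the groups fail to overlap, whereas the groups did not overlap in 27.5% of all genes tested (11.5% higher and 16% lower after depletion). The member with the highest log2 difference was Rrm2 (0.88, SE 0.60, 95% interval −0.44 to 2.21, adjusted p = 0.46) and that with the lowest Ccnd1 (−0.72, SE 0.47, −1.77 to 0.32, adjusted p = 0.447).

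The direction of both groups of genes in this comparison turned with the libraries kept, and that of the mitosis genes also with the tool. By edgeR 19 of 24 mitosis members had a log2 difference above 0 (median 0.27) and 8 of 11 S phase members one below 0 (median −0.17), beside 50.8% of all genes below 0 and a median of −0.01. By voom 22 of 24 mitosis members were below 0 (median −0.72), as the mitosis score was. Without depletion 6, 23 of 24 were above 0 (median 0.79), and without depletion 9, 24 of 24 were below 0 (median −0.88). Of the S phase members 9 of 11 were above 0 without depletion 6 (median 0.23) and 10 of 11 below 0 without depletion 9 (median −0.75). Mki67 had a log2 difference of 0.25 (SE 0.86, 95% interval −1.67 to 2.16, adjusted p = 0.914).

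Markers of several other cell types were low in library 6, and some of them in the other depletion libraries too. Its summed levels of T and NK cell markers (0.522 CPM), endothelial markers (85.2 CPM), stellate cell and fibroblast markers (77.8 CPM) and erythroid genes (7.21 CPM) were the lowest of the 12 libraries, beside 2.99 to 4.20, 263 to 275, 157 to 235 and 48 to 89.4 CPM in the controls of its model. Not every gene of these sums was low there. The erythroid gene Klf1 stood at 3.59 CPM in library 6, the highest of the 12, beside 0.318 to 0.579 CPM in those controls. Of the stellate cell and fibroblast markers, Col1a1 stood at 1.98 CPM beside 36.6 to 57.3 CPM, but Dcn (60.5 CPM) and Des (1.81 CPM) lay within the control range. Depletion 9, where the cell cycle genes were highest in the group, had 1.41 CPM of T and NK cell markers, 140 CPM of endothelial markers, 154 CPM of stellate cell and fibroblast markers and 7.44 CPM of erythroid genes, also below those controls, and depletion 10 had 1.79, 184, 166 and 20.1 CPM. The 6 B and plasma cell markers summed to 23.9, 13.5 and 25.6 CPM in depletion 6, 9 and 10 beside 31.3 to 55.9 CPM, and Ms4a1 and Mzb1 were at 0 in depletion 6. Hepatocyte markers, a sum made up mostly of Alb, summed to 155320, 173610 and 199640 CPM in depletion 6, 9 and 10, beside 186160 to 241090 CPM in those controls. Single hepatocyte markers went both ways, with log2 differences above 0 in 3 and below 0 in 4. Apoa1 stood at 8273, 8720 and 10889 CPM beside 13985 to 15621 CPM, and Cps1 at 7450, 6820 and 6121 CPM beside 3136 to 5077 CPM. The part of these cell types in the low cell cycle genes was not tested.

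The second comparison asks the same in the N-Ras+AKT model. None of the 36 members passed, beside 23.7% of all genes tested (12.8% higher and 10.8% lower). Pcna (log2 −0.51, SE 0.20, adjusted p = 0.0854), Ccne1 (−1.17, SE 0.44, adjusted p = 0.078) and Ccnd1 (−1.12, SE 0.48, adjusted p = 0.113) had an unadjusted p under 0.05, as did 37.3% of all genes. DESeq2 called Ccne1 (adjusted p = 0.0296) and Ccnd1 (adjusted p = 0.039) lower, voom called Ccne1 lower (adjusted p = 0.0403), and edgeR on the 6 libraries alone called Mcm6 lower (−0.85, adjusted p = 0.0292). Mcm6, Pcna, Ccne1 and Ccnd1 lay lower in every depletion library than in any control. No member lay higher without overlap, so groups did not overlap in 4 of 36 members, beside 43% of all genes tested (21.4% higher and 21.5% lower).

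By direction, 10 of 11 S phase members (median −0.51) and 22 of 24 mitosis members (median −0.47) had log2 differences below 0 in this model, beside 51.9% of all genes tested and a median of −0.02. The extremes were Ccne1 (−1.17) and E2f1 (0.09, SE 0.42, adjusted p = 0.902). Mki67 had a difference of −0.58 (SE 0.86, 95% interval −2.48 to 1.32, adjusted p = 0.667) and Top2a of −1.06 (SE 0.83, −2.91 to 0.79, adjusted p = 0.386). For the mitosis members this direction rested on control 15. Without that library 16 of 24 were above 0 (median 0.14) and the median of the S phase members was −0.16, with 9 of 11 below 0. By voom 17 of 24 mitosis members were below 0 (median −0.17), and without control 3 all 24 were below 0 (median −0.89).

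Markers of some other cells also moved with depletion in that model, where 12.8% of all genes tested were called higher and 10.8% lower. Summed macrophage markers were 394 to 555 CPM in its depletion libraries and 106 to 233 CPM in controls, with 6 of 7 called higher. T and NK cell markers were 6.03 to 12.6 CPM beside 1.90 to 4.60 CPM, with 5 of 8 called higher, and cholangiocyte markers 17.2 to 43.6 CPM beside 127 to 160 CPM, with 5 of 6 called lower. Fewer markers of the other lists were called. They were 2 of 7 hepatocyte, 1 of 6 B and plasma cell, 1 of 6 endothelial and 1 of 6 stellate cell and fibroblast markers, all higher. None of 4 neutrophil and none of 6 erythroid genes tested was called. The part of these cell types in the levels of cell cycle genes was not tested.

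The difference of the depletion effects, N-Ras+AKT minus DEN+CCl4, passed for none of the 36 members, beside 11.6% of all genes tested (7.98% higher and 3.6% lower). Only Pcna had an unadjusted p under 0.05 (log2 difference of effects −0.80, SE 0.29, adjusted p = 0.0906), beside 29% of all genes, and DESeq2 and voom called no member. Without DEN+CCl4 depletion 6 Pcna passed (−0.98, adjusted p = 0.0331). The highest difference was that of E2f1 (0.38, SE 0.60, adjusted p = 0.727) and the lowest that of Rrm2 (−1.35, SE 0.83, adjusted p = 0.313). The median was −0.33 over the S phase members and −0.66 over the mitosis members, beside −0.03 over all genes tested, of which 52.1% were below 0, and voom turned the mitosis median to 0.40. Without DEN+CCl4 depletion 9 all 24 mitosis members were above 0 (median 0.35) and the S phase median was 0.08. The medians, first of the mitosis and then of the S phase members, were −0.18 and −0.07 without N-Ras+AKT control 15, −1.08 and −0.62 without N-Ras+AKT control 3, and −1.20 and −0.60 without DEN+CCl4 depletion 6.

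**Figure D4:**
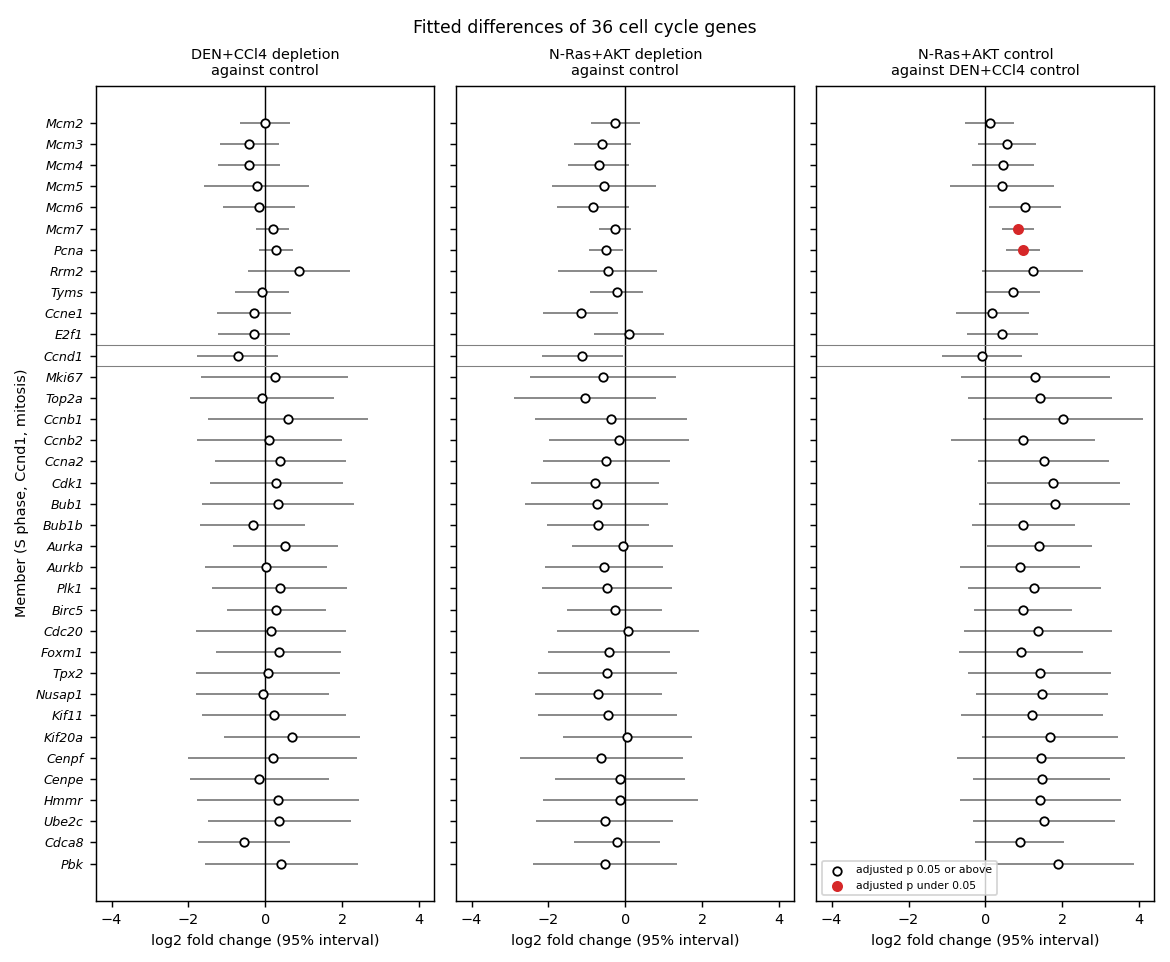
Log2 differences of the 36 members in the DEN+CCl4 depletion, N-Ras+AKT depletion and control comparisons, with 95% intervals of the edgeR fit. Intervals of the mitosis members reach across 0 in both depletion comparisons, and Pcna and Mcm7 passed in the comparison of the controls.

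The last comparison sets N-Ras+AKT controls against DEN+CCl4 controls, and it shares the N-Ras+AKT controls with the depletion comparison of that model. Of the 36 members, 2 passed, both higher in the N-Ras+AKT tumours, beside 40.6% of all genes tested (20.8% higher and 19.8% lower). Pcna had a log2 difference of 0.98 (SE 0.20, adjusted p = 0.00277) and Mcm7 one of 0.84 (SE 0.19, adjusted p = 0.0048). Another 4 members had an unadjusted p under 0.05, beside 49.4% of all genes in all. Mcm6, Mcm7, Pcna, Rrm2, Cdk1, Aurka and Ube2c were higher in all 3 N-Ras+AKT controls than in all 3 DEN+CCl4 controls, 7 of 36, and no member was lower without overlap, beside 54.5% of all genes tested (28.4% higher and 26.1% lower).

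All 11 S phase members (median 0.57) and all 24 mitosis members (median 1.42) had log2 differences above 0 in this comparison, beside 47.8% of all genes below 0 and a median of 0.04. Without N-Ras+AKT control 15 the medians were 0.36, with 10 of 11 above 0, and 0.77, with all 24 above 0. Ccnd1 was the exception among the 36 (−0.09, SE 0.47, adjusted p = 0.902), and Ccnb1 had the highest difference (2.02, SE 0.94, adjusted p = 0.112). The fit without DEN+CCl4 depletion 6 and N-Ras+AKT depletion 17, which are not in the comparison but add to the estimate of the spread, called 11 members, as did the fit of the 6 control libraries alone. Over all genes these 2 fits called 7663 and 6835, beside 6901 in the main fit. Ccnb1 (2.0, adjusted p = 0.0461) and Cdk1 (1.75, adjusted p = 0.0224) were among the members called in the fit of the 6 libraries. DESeq2 called 4 members and voom 3, beside 7329 and 6961 of all genes. The models also differ in the days after the last dose and in the first number of every sample title (2 or 7), so the model cannot be told apart from these.

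Listed genes of the same pathways that are not among the 36 showed where the members' pattern extended. In DEN+CCl4 depletion 6 the mean log2 deviation from the mean of the 12 libraries was −3.37 over 17 genes of the spindle and cytokinesis, −2.40 over 19 of the kinetochore and its checkpoint and −2.17 over 10 of chromosome condensation and cohesion. It was −1.0 over 24 genes of replication licensing and the fork, −1.13 over 9 cell cycle transcription factors, −1.03 over 16 other cyclins, kinases and their regulators (of G1, but also of G2 and checkpoints, such as Wee1, Pkmyt1, Cdc25c, Fbxo5 and Chek1), −0.55 over 7 genes of nucleotide supply and −0.17 over 13 inhibitors and pocket proteins. In N-Ras+AKT control 15 the same lists stood at 1.71, 1.16, 1.33, 0.83, 0.51, 0.79, 0.30 and 0.49. The lists of mitosis thus stood furthest from the mean and the list of inhibitors nearest to it in the first library. The inhibitor value there averaged genes that went both ways. Cdkn2a stood at 0.279 CPM in DEN+CCl4 depletion 6 beside 2.40 to 4.91 CPM in the controls of its model. Rbl2 stood at 53.6 CPM beside 26.6 to 36.8 CPM.

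In the DEN+CCl4 model no gene of the 8 pathway lists passed in edgeR, beside 0.37% of all genes tested. An unadjusted p under 0.05 was found in 2 of 9 transcription factors, 5 of 16 cyclins, kinases and regulators and 5 of 13 inhibitors and pocket proteins, beside 18.7% of all genes. DESeq2 called 1 inhibitor higher and 1 cyclin, kinase or regulator lower, and voom called none, beside 1066 and 71 of all genes. In the N-Ras+AKT model 5 of the 16 cyclins, kinases and regulators fell and none rose, beside 10.8% of all genes tested called lower and 12.8% called higher. Cdc25a, a phosphatase that removes the brake on Cdk2, stood at 14.5, 13.7 and 18.1 CPM in controls 3, 10 and 15 and at 6.05, 8.08 and 4.31 CPM in depletion 6, 11 and 17 (log2 −1.33, SE 0.23, adjusted p = 0.00451). Cdk2 itself stood at 14.7, 13.1 and 15.8 CPM and at 8.96, 9.60 and 9.45 CPM (−0.64, SE 0.11, adjusted p = 0.00451). The other 3 were Cdk4 (−0.85), Wee1 (−0.78) and Ccnd2 (−1.49), which are named because the count was small. All 16 genes of the list were below 0 (median −0.61). The call of Ccnd2 was lost without control 3 or 15 or depletion 6 or 17 (−1.63 to −1.19), and the other 4 lasted without each library in turn.

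In that model 1 of 24 genes of replication licensing and the fork rose and 2 fell, a smaller share than the 23.7% of all genes tested that were called. Mcm10, a replication fork factor needed to start DNA synthesis, stood at 2.18, 4.71 and 5.57 CPM in controls and at 8.36, 9.25 and 20.3 CPM with depletion (log2 1.61, SE 0.43, adjusted p = 0.0218), and the call was lost without control 3 (1.3, adjusted p = 0.0672) or depletion 17 (1.08, adjusted p = 0.0947). Pola1, the catalytic subunit of the priming polymerase (−1.49, adjusted p = 0.0152), and Pold1, that of polymerase delta (−0.54, adjusted p = 0.0472), fell. The call of Pola1 was lost without depletion 6 or 17, and that of Pold1 without any of the 6 libraries. No gene of nucleotide supply, the kinetochore, the spindle or condensation and no transcription factor passed in edgeR, where 3, 0, 0, 0 and 3 had an unadjusted p under 0.05, beside 37.3% of all genes. DESeq2 and voom each called 1 gene of nucleotide supply higher, voom called 1 transcription factor higher, and neither called any of the others. Over all genes DESeq2 called 4795 and voom 4516.

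Among the 13 inhibitors and pocket proteins, 1 rose and 3 fell with N-Ras+AKT depletion, beside the same 12.8% and 10.8% of all genes. Btg2, an antiproliferative p53 target, stood at 101, 46.1 and 49.8 CPM in controls and at 24.7, 24.3 and 15.1 CPM with depletion (log2 −1.62, SE 0.30, adjusted p = 0.00573). Cdkn1a, which codes for the CDK inhibitor p21, stood at 92.7, 66.2 and 67.6 CPM and at 51.5, 52.1 and 43.7 CPM (−0.62, SE 0.20, adjusted p = 0.0386). Cdkn1b, which codes for p27, stood at 34.5, 23.0 and 29.8 CPM and at 20.4, 22.8 and 20.0 CPM (−0.47, SE 0.15, adjusted p = 0.0397). Rbl2, a pocket protein of resting cells, rose by 0.78 (SE 0.22, adjusted p = 0.0253). The calls of Cdkn1a and Cdkn1b were lost without control 3 or 15 or depletion 6 or 17, that of Cdkn1a also without depletion 11, and that of Rbl2 without control 3 or 15 or depletion 17, while the call of Btg2 lasted.

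In the DEN+CCl4 model Cdkn1a stood at 23.7, 19.7 and 34.5 CPM in controls and at 34.7, 31.7 and 39.6 CPM with depletion, and Cdkn1b at 20.1, 19.5 and 20.4 CPM and at 29.6, 22 and 23.6 CPM. Neither passed (adjusted p = 0.252 and 0.264). Cdkn2a, the locus of p16 and p19ARF, stood at 4.91, 2.40 and 2.72 CPM and at 0.279, 1.06 and 1.60 CPM in this model, and at 2.38, 1.44 and 2.50 CPM and 1.72, 0.55 and 0.135 CPM in the N-Ras+AKT model. It passed in neither (log2 −1.75, adjusted p = 0.237, and −1.40, adjusted p = 0.191).

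**Figure D5:**
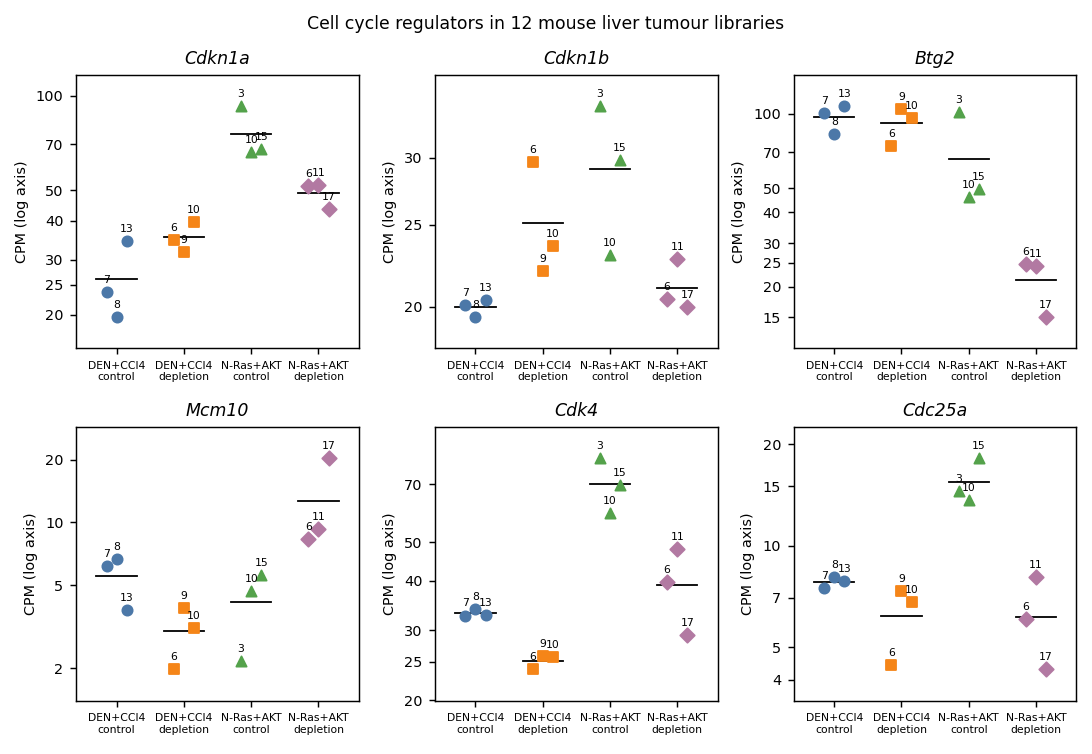
CPM (log axis) of Cdkn1a, Cdkn1b, Btg2, Mcm10, Cdk4 and Cdc25a, which are not among the 36 members, in each library, labelled by replicate number, with a bar at the arithmetic mean of a group. Btg2, Cdk4 and Cdc25a lie lower in all 3 N-Ras+AKT depletion libraries than in all 3 controls.

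Between the controls of the 2 models, 10 of 24 genes of replication licensing and the fork were higher in N-Ras+AKT tumours, beside 20.8% of all genes tested. By p the first were Rfc3, a subunit of the clamp loader (log2 1.17, SE 0.23, adjusted p = 0.00232), and Chaf1b, a histone chaperone (1.13, SE 0.30, adjusted p = 0.0109). Cdk4 was higher (1.09, SE 0.16, adjusted p = 0.000408), at 81.4, 59.5 and 69.9 CPM beside 32.7, 33.9 and 32.7 CPM, as were Cks2 and Cdc25a among the 16 cyclins, kinases and regulators. Inhibitors were higher as well, 6 of 13, with the smallest p for Cdkn1a (1.54, SE 0.20, adjusted p = 0.000182) and Ccng1 (0.96, SE 0.19, adjusted p = 0.00215), and Rbl2 was lower (−0.74, adjusted p = 0.0187). Of the remaining lists, 3 of 19 kinetochore, 2 of 10 condensation, 2 of 9 transcription factor and 2 of 7 nucleotide genes (Dut and Tipin, the latter a fork protection factor) were higher, beside the same 20.8% of all genes. Of the nucleotide genes 1 of 7 (Tk1, thymidine kinase, log2 −0.85, adjusted p = 0.00334) was lower, beside 19.8% of all genes. None of 17 spindle genes passed, of which 2 had an unadjusted p under 0.05, beside 49.4% of all genes, and DESeq2 called 1. Of the 10 licensing and fork genes, Rfc3 and Chaf1b passed without each control library in turn and the other 8 were lost at least once. So were 2 of the 3 kinetochore calls, both transcription factor calls, 1 of the 3 nucleotide calls and, among the inhibitors, Cdkn1b without N-Ras+AKT control 3 and Rbl2 without that library or DEN+CCl4 control 13. Hepatocyte markers were lower in these tumours (6 of 7) and cholangiocyte markers higher (6 of 6, summed level 127 to 160 CPM beside 28.9 to 38.9 CPM), and their part in the difference was not tested.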

How the data were processed

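Poly-A RNA was sequenced from 12 bulk tumour libraries, and 6 single-cell samples were not analysed here. The authors deposited 1 table of raw counts per gene in whole numbers. The build mm10 and the tools RSEM 1.3.1, STAR 2.7.3 and Cell Ranger 3.0.2 are named, per the submitters' processing notes, without their roles, so the counts may be rounded RSEM estimates, in which reads shared by similar genes are split by a model. The strand setting, annotation and filters were not found among the labels.

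Groups came from the sample titles. Of 55335 genes, 55154 matched GENCODE M21 (GRCm38). Genes were filtered with filterByExpr (17013 kept), scaled by TMM, and fitted together, with a mean for each of 4 groups, by the robust quasi-likelihood method of edgeR 4.0.16 in R 4.3.3, which left 8 residual degrees of freedom and a common biological coefficient of variation of 0.238. Tests were two-sided, and a gene passed when its p, adjusted by Benjamini-Hochberg across the genes tested, was under 0.05. SE are those implied by the F statistic. CPM use TMM-scaled library sizes, and scores used log2 CPM with a prior count of 2. Shares of all genes are given beside counts of members because members were chosen, not drawn. The fit was tested on simulated data with the same spread for every gene and with no library set apart. The simulated spread was below that of every member except Mcm7 and Pcna. That test therefore does not cover members as variable as these. Alternatives were RLE size factors, no filter, DESeq2 1.42.0, limma 3.58.1 (voom), the 6 libraries compared alone, each library left out, and both libraries that stand apart left out.

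The members, lists, alternatives and the rule for named genes were chosen with earlier results of these data known. The rule named 13 members, members that passed, the extremes of each comparison, up to 2 pathway genes a list and direction with the smallest p, and Cdkn1a, Cdkn1b and Cdkn2a. Mcm6, the Cdk4 values and the members of small counts were named after their values were seen. Promoters are from RefSeq, GRCm38.p6.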

Additional observations from a re-analysis of the deposited data

Results flagged for a closer look

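Of the members and the genes of the 8 pathway lists, 4 had a depletion effect that differed between the tumour models by the test of the difference itself (edgeR's quasi-likelihood test, adjusted over all genes). None of the 4 is among the 36 members, and 11.6% of all genes tested passed the same test. Of the 12 fits that left out 1 library, the call was lost in 4 for Mcm10, in 8 each for Cdkn1a and Cdkn1b and in 7 for Btg2. DESeq2 called 6 genes of the pathway lists in this test and voom 4, beside 2984 and 1996 of all genes.

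Mcm10, a replication fork factor, differed by 2.49 on the log2 scale (N-Ras+AKT minus DEN+CCl4, SE 0.61, adjusted p = 0.0267). It stood at 6.16, 6.70 and 3.82 CPM in DEN+CCl4 controls and at 1.98, 3.91 and 3.12 CPM after depletion, beside 2.18, 4.71 and 5.57 CPM and 8.36, 9.25 and 20.3 CPM in the N-Ras+AKT model. The call was lost without DEN+CCl4 control 7, control 8 or depletion 6 or N-Ras+AKT depletion 17, with values of 1.95 to 2.41.

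Cdkn1a, which codes for p21, differed by −1.06 (SE 0.28, adjusted p = 0.0307), with 23.7, 19.7 and 34.5 CPM in DEN+CCl4 controls, 34.7, 31.7 and 39.6 CPM after depletion, 92.7, 66.2 and 67.6 CPM in N-Ras+AKT controls and 51.5, 52.1 and 43.7 CPM after depletion. Cdkn1b, which codes for p27, differed by −0.80 (SE 0.21, adjusted p = 0.0324), with 20.1, 19.5 and 20.4 CPM, 29.6, 22 and 23.6 CPM, 34.5, 23.0 and 29.8 CPM, and 20.4, 22.8 and 20.0 CPM in the same order. Btg2 differed by −1.54 (SE 0.42, adjusted p = 0.0381), with 101, 83.1 and 108 CPM, 73.9, 104 and 96.5 CPM, 101, 46.1 and 49.8 CPM, and 24.7, 24.3 and 15.1 CPM.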

How the results depend on the processing

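No paired analysis was made because the labels name no pairs of libraries between the groups compared. No member passed in the DEN+CCl4 comparison under any of the 12 alternatives. In the N-Ras+AKT depletion comparison DESeq2 called 2, voom 1 and the 6 libraries alone 1, beside 4795, 4516 and 2626 of all genes. In the difference of effects 1 passed without DEN+CCl4 depletion 6, beside 1624 of all genes, and 0 without any other single library. Between the controls DESeq2 called 4, the fit without both libraries that stand apart 11, the 6 libraries alone 11, and fits without each library 2 to 3. Over all genes these fits called 7329, 7663, 6835 and 5349 to 6259. Over all genes the DEN+CCl4 comparison called 63, and 171 without the filter, 1066 by DESeq2, 26 without both libraries that stand apart and 13 with the 6 libraries alone. Without 1 library it called 3 (control 7), 2 (control 8), 30 (control 13), 10 (depletion 6), 6 (depletion 9) or 465 (depletion 10). The N-Ras+AKT comparison called 4027, and 2429 and 2626 under the last 2 of these settings, and 2257 without control 3, 2225 without control 15 and 1768 without depletion 17, and the difference called 1970, and 2984 by DESeq2, 844 without both and 895 to 1232 without DEN+CCl4 control 7, 8 or 13 or depletion 9 or N-Ras+AKT control 3 or 15 or depletion 6 or 17. The score differences moved by less than 1 SD (pooled over the groups compared) under every alternative. Leaving out 1 of 3 libraries cannot move them by that much, so for those fits this says nothing about stability. Without each library the DEN+CCl4 mitosis score difference ran from −1.65 to 0.64 and the N-Ras+AKT one from −0.79 to 0.29.

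No log2 difference that changed sign under an alternative had passed a test, and the cause was not tested. In the DEN+CCl4 comparison voom gave −0.67 for Mki67, −0.64 for Ccnb1, −0.50 for Cdk1, −0.87 for Cdc20 and −0.40 for Plk1, and the fit without both libraries gave 0.47 for Top2a, 0.24 for Mcm2, 0.28 for Mcm5, 0.25 for Mcm6, 0.05 for Ccne1 and 0.14 for E2f1. Without each library in turn the range was −1.14 to 0.70 for Cdc20, −1.19 to 0.47 for Top2a, −0.34 to 0.23 for Mcm2, −1.01 to 0.27 for Mcm5, −0.80 to 0.24 for Mcm6, −0.75 to 0.05 for Ccne1, −0.91 to 0.13 for E2f1, −0.89 to 0.80 for Mki67, −0.60 to 1.16 for Ccnb1, −0.78 to 0.83 for Cdk1, −0.70 to 0.91 for Plk1, −0.01 to 0.32 for Mcm7 and −0.05 to 1.34 for Rrm2. In the N-Ras+AKT comparison voom gave 0.04 for Ccnb1 and the fit without both gave −0.19 for Cdc20, and the leave-out ranges were −0.38 to 0.56 for Cdc20, −0.11 to 0.23 for E2f1, −1.0 to 0.05 for Mki67 and −0.82 to 0.26 for Ccnb1. In the difference voom gave 0.38 for Mki67, 0.20 for Top2a, 0.68 for Ccnb1, 1.26 for Cdc20, 0.21 for Plk1 and 0.33 for Mcm5, and the fit without both gave −0.03 for E2f1, with leave-out ranges of −0.64 to 1.20 for Cdc20, −0.04 to 1.00 for E2f1, −1.38 to 0.32 for Mki67, −1.52 to 0.13 for Top2a, −1.53 to 0.24 for Ccnb1, −1.61 to 0.00 for Cdk1, −1.39 to 0.22 for Plk1, −0.51 to 0.08 for Mcm2, −0.82 to 0.47 for Mcm5 and −0.79 to 0.14 for Ccnd1. Between the controls the ranges were −0.64 to 0.19 for Ccnd1 and −0.08 to 0.37 for Mcm2.

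With 3 libraries a group, the interval for Mki67 in the DEN+CCl4 comparison ran from −1.67 to 2.16, and 0 lay inside it. The spread without DEN+CCl4 depletion 6 or N-Ras+AKT control 15 was computed after seeing the data. In DEN+CCl4 depletion 6, 7 mitosis members had 3 counts or fewer.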
